A study of Mus musculus with 6 samples.

Results

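The 77 genes described here are those named as mitochondrial ribosomal proteins by their Mrps or Mrpl symbols. They were taken as every gene of the count table whose mouse symbol consists of Mrps or Mrpl, a number and at most one letter from a to c, with pseudogenes left out. They were 77 of the 23565 genes in the table. The rule used symbols alone, although it was set with earlier results of these data known. The libraries came from crypts of the mouse small intestine, in 2 groups of 3 mice per the labels, although 2 Lgr5-CreER headers share a number. HopXCreER::Rosa26LSL-tdTomato mice gave tdTomato+ cells (Hopx-CreER), and Lgr5eGFP-IRES-CreER::Rosa26LSL-tdTomato mice gave cells positive for both eGFP and tdTomato (Lgr5-CreER). Every mouse had received 1 mg of tamoxifen 16 hours before harvest, so both groups carried a Cre driver and a recombined reporter, and no uninjected or unsorted sample was analysed here. The Hopx-CreER cells are those in which the Hopx driver was active at the time of tamoxifen, together with any descendants formed before harvest. The Lgr5-CreER cells are the corresponding cells for the Lgr5 driver, limited to those that were positive for eGFP at harvest. The gates of the 2 groups were therefore not alike.

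The mitochondrial ribosome translates the few respiratory chain proteins that mitochondrial DNA encodes. Its ribosomal RNAs are transcribed inside the organelle, whereas its proteins are encoded in the nucleus, made in the cytosol and imported. Some of these proteins descend from bacterial ribosomal proteins, and others exist only in mitochondria. Intestinal stem cells are known for high mitochondrial activity, and their mitochondrial metabolism changes as their progeny differentiate.

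Of the 77 members, 26 belong to the small subunit and 50 to the large subunit, including Mrps30 and Mrps18a, which carry small-subunit names but sit in the large subunit. The remaining gene, Mrps36, was named as a ribosomal protein but is now known as a component of the 2-oxoglutarate dehydrogenase complex. It was kept because the symbol rule includes it. Among the small-subunit genes 16 have a bacterial homologue and 10 are specific to mitochondria, and among the large-subunit genes these numbers were 30 and 20. All 77 are protein coding, and they lie on 17 chromosomes, with 11 on chromosome 11 and 8 on chromosome 17.

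Promoter sequences are shown for 4 members: the pair with the smallest p among those above the Lgr5-CreER level and the pair with the smallest p among those below it. They come from RefSeq (GRCm38.p6) and run 5′ to 3′ from 250 bases before to 50 bases after the start annotated there. Coordinates and distances of genes below use GENCODE starts instead. The windows of Mrpl51 and Mrpl33 begin after their GENCODE gene starts (125191801 and 31596935). Capitals mark each match to 1 of 4 motifs searched on both strands. The motifs were GCATGCG for NRF1, CCGGAAG for GABP and other ETS factors, AAGATGGCG for YY1 and GGGCGG for SP and KLF factors. On the minus strand of the promoter, a match appears as the reverse complement. A match describes the letters only.
Mrpl51 (chr6:125191950-125192249, plus strand): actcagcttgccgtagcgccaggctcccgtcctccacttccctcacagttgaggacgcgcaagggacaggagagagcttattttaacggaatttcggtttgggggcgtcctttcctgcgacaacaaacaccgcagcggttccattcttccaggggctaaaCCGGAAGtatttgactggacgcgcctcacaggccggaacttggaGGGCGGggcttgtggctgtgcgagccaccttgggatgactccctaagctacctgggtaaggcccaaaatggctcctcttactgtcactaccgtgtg
Mrpl55 (chr11:59202236-59202535, plus strand): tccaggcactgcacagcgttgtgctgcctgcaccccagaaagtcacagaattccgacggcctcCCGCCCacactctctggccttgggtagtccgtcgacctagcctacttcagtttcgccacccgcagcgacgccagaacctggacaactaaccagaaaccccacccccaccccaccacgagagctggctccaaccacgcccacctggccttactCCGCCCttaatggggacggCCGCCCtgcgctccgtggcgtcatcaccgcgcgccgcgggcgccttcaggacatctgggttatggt
Mrpl50 (chr4:49521034-49521333, minus strand): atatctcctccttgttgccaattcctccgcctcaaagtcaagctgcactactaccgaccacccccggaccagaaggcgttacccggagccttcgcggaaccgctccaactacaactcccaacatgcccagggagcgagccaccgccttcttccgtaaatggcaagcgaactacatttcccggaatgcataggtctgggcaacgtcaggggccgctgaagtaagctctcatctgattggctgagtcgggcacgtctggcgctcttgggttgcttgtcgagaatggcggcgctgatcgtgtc
Mrpl33 (chr5:31613701-31614000, plus strand): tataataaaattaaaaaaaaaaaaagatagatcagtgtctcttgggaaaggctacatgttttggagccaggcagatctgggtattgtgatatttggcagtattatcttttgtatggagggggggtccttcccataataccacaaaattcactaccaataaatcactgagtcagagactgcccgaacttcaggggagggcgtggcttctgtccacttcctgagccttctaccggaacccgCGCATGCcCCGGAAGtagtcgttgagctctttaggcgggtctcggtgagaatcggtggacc
The Mrpl51 promoter held 1 ETS and 1 SP/KLF match, and the Mrpl55 promoter held 3 SP/KLF matches. The Mrpl50 promoter held no match, and the Mrpl33 promoter held an NRF1 match next to an ETS match.

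RefSeq promoters were found for 68 of the 77 members, and these had 74 promoters. The ETS motif was found in 25 of the 74 promoters (33.8%), against 17.7% of the promoters of all genes tested and 8.86% of all promoters in the table. The YY1 motif occurred in 8 of the 74 (10.8%), against 3.10% and 1.40%. The NRF1 motif also occurred in 8 of the 74, against 6.21% and 3.58%. The SP/KLF motif occurred in 39 of the 74 (52.7%), against 62.3% of the promoters of genes tested and 35.7% of all promoters. NRF1 and GABP are known as regulators of nuclear genes for mitochondrial proteins, and no binding was measured here.

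Library totals ranged from 10839306 to 14570555 counts, so 1 count corresponded to 0.067 to 0.093 CPM (counts scaled to library size with edgeR's TMM factors). Libraries are numbered within a group by their column in the table, and the numbers are names only. Hopx-CreER library 3 stood apart from the other libraries of its group: over 8165 genes, the SD of log2 differences was 0.576 and 0.551 against libraries 1 and 2, and 0.320 between these. Lgr5-CreER libraries 2 and 3 had headers that share a number, and their SD of 0.249 was the lowest of the within-group pairs. The Hopx transcript itself had a log2 fold change of -0.73 (positive values mean a higher level in Hopx-CreER) and an adjusted p of 0.0131 in edgeR's quasi-likelihood test. That of Lgr5 was -1.38, with an adjusted p of 0.0147. The Hopx result runs against the name of the sorted group, and both transcripts are the endogenous ones, whose reads may also come from the driver alleles.

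The sorted fractions also differed in cell type markers. Summed over 10 Paneth cell markers, the Hopx-CreER libraries 1 to 3 held 15720, 14980 and 32546 CPM and the Lgr5-CreER libraries 1659, 3246 and 1917 CPM, and 10 of 10 were called higher in Hopx-CreER. All 9 enteroendocrine markers, 7 of 8 goblet markers, 6 of 7 tested tuft markers and 10 of 10 enterocyte markers were also called higher, and 9 of 10 Lgr5 stem cell markers were called lower. Of 8 epithelial markers, which include Epcam and keratins, 3 were called higher and 0 lower, with a median log2 fold change of 0.25, and their sums were 17852, 17487 and 19437 CPM against 12607, 12083 and 13014 CPM. The 6 immune markers summed to 2.41, 4.23 and 5.10 CPM against 1.81, 1.21 and 1.38 CPM, so all 3 Hopx-CreER sums lay above the others. The 6 stromal and endothelial markers in the table summed to 1.02 to 3.64 CPM in Hopx-CreER and to 0 to 1.55 CPM in Lgr5-CreER. From each of these lists 1 gene passed the filter, with log2 fold changes of 0.87 and 1.51, and neither was called in edgeR. Of the defining markers, Col1a1, Cdh5 and Itgax were at 0 in every library. In bulk RNA, fewer cells of a type and less RNA per cell cannot be told apart, and the part of these cell types in the values below was not tested.

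No mitochondrial ribosomal protein gene passed the test between the sorted groups. All 77 passed the filter on low counts, with a lowest count of 195 in any library. In edgeR's quasi-likelihood test with Benjamini-Hochberg adjustment over 12439 genes, 0 of 77 were called at an adjusted p under 0.05, against 12.8% of all genes tested. In one direction, 9.45% of all genes were called higher and 3.3% lower in Hopx-CreER. Without adjustment, 4 of the 77 had a p under 0.05 (Mrpl51, Mrpl55, Mrpl15 and Mrpl34), against 27.3% of all genes tested. DESeq2 called 2 members, Mrpl51 with an adjusted p of 0.0351 and Mrpl55 with 0.0449, against 16.9% of all genes, and limma-voom called 0, against 12.4%. Mrpl51 also passed with at least 1 CPM in 3 libraries as the filter and with scaling that left out cell type markers and the 10 most abundant genes, where 13.2% and 12.8% of all genes were called. Without Hopx-CreER library 1, Mrpl51 and Mrpl55 passed, against 11.3% of all genes. With offsets for GC content and length, 4 members were called lower, against 9.5% of all genes.

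The members' log2 fold changes were small and mostly above 0. They ran from -0.29 to 0.42 with a median of 0.14 (interquartile range 0.06 to 0.21), against a median of -0.03 over all genes tested. Of the 77, 65 lay above 0 and 12 below, while 47.2% of all genes tested lay above 0. This split turned with the processing. The members above 0 numbered 30 with offsets for GC content and length, 28 with GC offsets and without Hopx-CreER library 3, and 51 without that library alone. Over the 19 alternatives, 21 of 77 members kept their sign in every one. The Hopx-CreER and Lgr5-CreER libraries did not overlap for 11 members with higher and 1 with lower Hopx-CreER values, or 15.6% of the members. Over all genes tested 34.9% did not overlap, 18.8% with higher and 16.2% with lower Hopx-CreER values.

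Under the main processing, the precision of these values gives a range for the difference of each gene. The 95% interval of the log2 fold change lay within a 2-fold change in either direction for 77 of 77 members and within a 1.5-fold change for 66. Over all genes tested, these shares were 56.0% and 28.3%. Among the 5939 tested genes whose mean level lay in the members' range, 20.6 to 283 CPM, they were 82.8% and 49.6%, and 813 of these genes (13.7%) were called. The median standard error was 0.13 for the members and 0.23 for all genes tested. The 11 members whose interval reached beyond 1.5-fold were Mrpl51, Mrpl55, Mrpl34, Mrpl50, Mrpl1, Mrps11, Mrps26, Mrps34, Mrps18c, Mrps16 and Mrps36, and the widest bound was 0.75, for Mrps34. Each interval is for a single gene and is not widened for the number of genes. It also leaves out shifts between ways of processing. The interval of Mrpl28 ran from -0.17 to 0.37, and its value with offsets for GC content and length was -0.33.

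**Figure D1:**
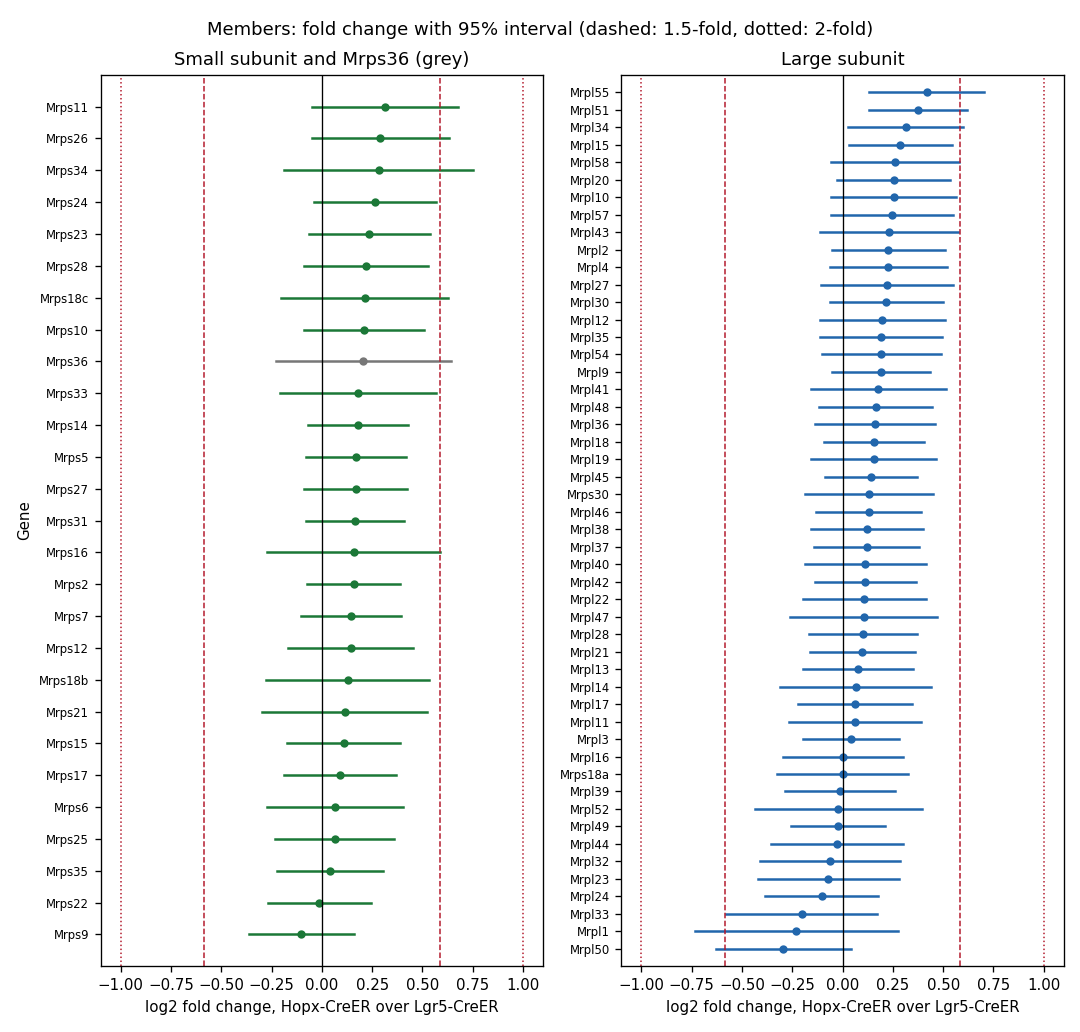
Log2 fold change between the sorted groups (x axis, positive where Hopx-CreER is higher) for each of the 77 members (y axis), with points for edgeR's estimate, bars for its 95% interval, and dashed and dotted lines at 1.5-fold and 2-fold. All bars lie within the 2-fold lines, and 66 lie within the 1.5-fold lines.

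The large-subunit genes Mrpl51, specific to mitochondria, and Mrpl55, assigned to a bacterial counterpart, came closest to the threshold. Mrpl51 (ENSMUSG00000030335, chr6:125191801-125196269, plus strand, GRCm38) was at 166.7, 186.7 and 190.5 CPM in Hopx-CreER libraries 1 to 3 and at 140.0, 130.7 and 148.5 CPM in the Lgr5-CreER libraries. All 3 Hopx-CreER values lay above all 3 Lgr5-CreER values. Its log2 fold change was 0.38 ± 0.11 (SE, 3 against 3 libraries; 95% interval 0.13 to 0.62), with an adjusted p of 0.0509 in edgeR. Mrpl55 (ENSMUSG00000036860, chr11:59202486-59206134, plus strand) was at 88.3, 99.8 and 109.2 CPM against 80.4, 68.7 and 73.2 CPM. Its groups did not overlap either, and its log2 fold change was 0.42 ± 0.13 (95% interval 0.13 to 0.70), the highest of the members, with an edgeR adjusted p of 0.0617. Over 19 alternative settings the adjusted p of Mrpl51 ran from 0.0351 to 0.198, with 4 calls, and that of Mrpl55 from 0.0449 to 0.638, with 2 calls.

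Mrpl15 and Mrpl34, large-subunit proteins with bacterial homologues, followed. Mrpl15 was at 173.9, 167.3 and 201.7 CPM in Hopx-CreER and at 142.4, 143.7 and 158.8 CPM in Lgr5-CreER, without overlap, for a log2 fold change of 0.29 ± 0.11 and an edgeR adjusted p of 0.137. Mrpl34 was at 93.0, 101.1 and 117.0 CPM against 90.4, 78.7 and 81.0 CPM, for 0.31 ± 0.13 and an adjusted p of 0.147 in edgeR. Its highest Lgr5-CreER library lay just under its lowest Hopx-CreER library, and its sign turned with offsets for GC content and length (-0.14). Mrpl58, a peptidyl-tRNA hydrolase that became part of the large subunit, was also without overlap, at 60.6, 64.6 and 80.0 CPM against 54.8, 56.9 and 59.5 CPM.

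The 3 members with the smallest p below 0 were Mrpl50, Mrpl33 and Mrpl1. Mrpl50 (ENSMUSG00000044018, chr4:49512596-49521093, minus strand), a mitochondria-specific large-subunit protein, was at 62.6, 68.7 and 48.8 CPM in Hopx-CreER and at 70.1, 76.4 and 74.4 CPM in Lgr5-CreER. It was the 1 member whose Hopx-CreER values all lay below the Lgr5-CreER values. Its log2 fold change was -0.29 ± 0.15 (95% interval -0.63 to 0.04), with an edgeR adjusted p of 0.238. Mrpl33, a homologue of a small bacterial large-subunit protein, was at 25.6, 33.4 and 26.5 CPM against 32.2, 32.9 and 33.4 CPM, so Hopx-CreER library 2 lay with the Lgr5-CreER libraries. Its log2 fold change was -0.20 ± 0.17, with an adjusted p of 0.469 in edgeR. Mrpl1, the protein of the mobile stalk beside the exit site for transfer RNA, was at 37.2, 32.6 and 20.0 CPM against 34.9, 35.8 and 34.8 CPM. Its value of -0.23 ± 0.22 (edgeR adjusted p 0.544) goes with a single low library, Hopx-CreER library 3.

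**Figure D2:**
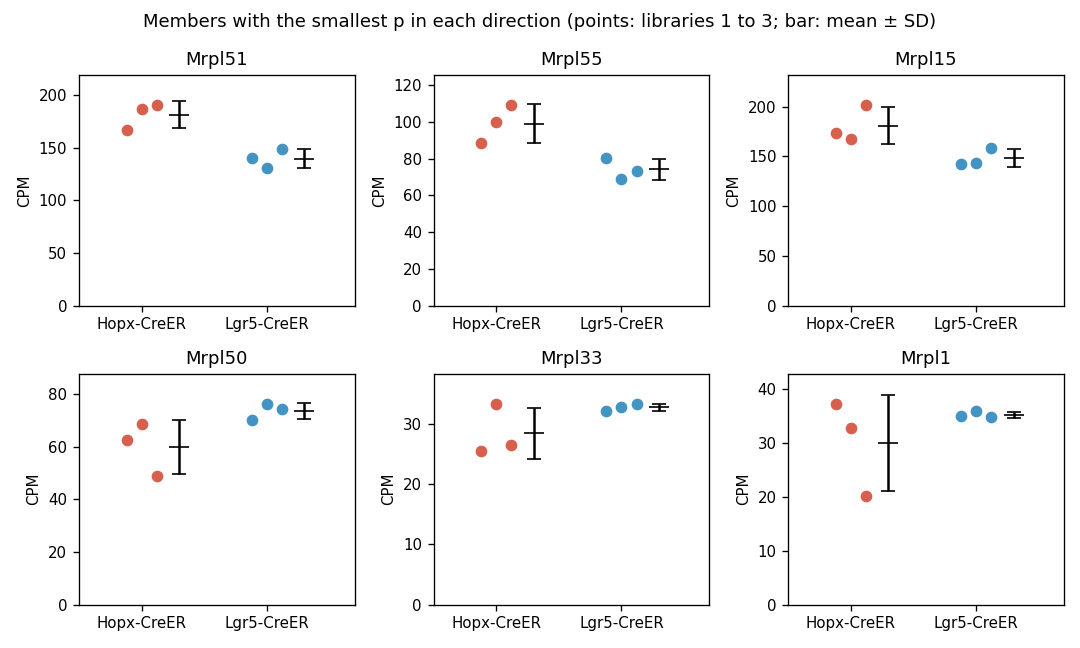
TMM-scaled CPM (y axis, from 0) of 6 members, the 3 with the smallest p in each direction, with a point per library (3 Hopx-CreER, 3 Lgr5-CreER) and bars for mean ± SD. The groups do not overlap for Mrpl51, Mrpl55, Mrpl15 and Mrpl50, and they overlap for Mrpl33 and Mrpl1.

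In the small subunit the largest log2 fold change was that of Mrps11, a homologue of bacterial S11 named here after its values were seen. It was at 45.0, 59.9 and 64.1 CPM in Hopx-CreER and at 45.2, 42.8 and 48.1 CPM in Lgr5-CreER, for 0.31 ± 0.16 (edgeR adjusted p 0.248), and as low as -0.10 over the alternatives, with its sign kept in 18 of 19. Hopx-CreER library 1 lay among the Lgr5-CreER libraries. Mrps12, the decoding-centre protein in which bacterial streptomycin resistance arises, was at 88.1, 99.1 and 100.1 CPM against 100.5, 73.9 and 85.5 CPM, and the ranges overlapped. Its log2 fold change of 0.14 kept its sign in 16 of 19 alternatives and reached -0.28. Mrps22, specific to mitochondria, was at 67.0, 70.9 and 65.3 CPM against 65.7, 70.2 and 69.1 CPM, for -0.01 ± 0.11, with the sign kept in 15 of 19. Mrps9 lay lowest in this subunit, at 88.6, 88.2 and 92.4 CPM against 86.4, 97.4 and 105.0 CPM, for -0.10 ± 0.12, and turned to 0.15 in 1 of 19.

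The large-subunit proteins with known special roles gave values of the same size. Mrpl12, of the stalk that recruits translation factors, was at 148.3, 138.8 and 184.4 CPM in Hopx-CreER and at 141.6, 121.6 and 147.6 CPM in Lgr5-CreER, for 0.20 ± 0.14. Its value kept its sign in 16 of 19 alternatives and reached -0.21. Mrpl45, which holds the ribosome to the inner membrane, was at 154.4, 164.7 and 174.4 CPM against 144.7, 147.5 and 155.5 CPM, for 0.14 ± 0.10 (sign kept in 17 of 19), and its groups overlapped by 1 library on each side. Mrpl44, which resembles RNase III, was at 75.9, 79.7 and 99.5 CPM against 83.2, 78.9 and 97.9 CPM, for -0.03 ± 0.15 (16 of 19). The non-ribosomal Mrps36 was at 19.7, 25.0 and 23.5 CPM against 22.2, 17.4 and 19.5 CPM, for 0.21 ± 0.19 (18 of 19).

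The subunits and kinds of protein had like medians. The median log2 fold change was 0.16 for the small subunit, with 24 of 26 above 0, and 0.13 for the large subunit, with 40 of 50 above 0. Proteins with a bacterial homologue had medians of 0.16 and 0.13 in the small and the large subunit, and mitochondria-specific proteins had 0.17 and 0.13. In edgeR none was called in either kind, and the difference between kinds was not tested.

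The members' offset was uneven among the Hopx-CreER libraries. Taken against the mean of the Lgr5-CreER libraries, the members had a median log2 value of -0.02 in Hopx-CreER library 1, of 0.13 in library 2 and of 0.29 in library 3. Their medians in the Lgr5-CreER libraries were 0.02, -0.05 and 0.04. The corresponding medians over all genes tested lay between -0.04 and 0.02 in the 6 libraries. Hopx-CreER library 3 was the highest of the 6 for 52 members, library 2 for 13 and library 1 for 3, and library 1 was the lowest of its group for 59. The summed level of the members was 7183.9, 7829.3 and 8652.7 CPM in Hopx-CreER and 7265.4, 6850.6 and 7356.8 CPM in Lgr5-CreER (7889 ± 736 against 7158 ± 270, SD, n = 3 each, a ratio of 1.10). Hopx-CreER library 1 lay among the Lgr5-CreER libraries. The library with the highest member levels was also that with the highest Paneth cell marker sum, 32546 CPM. Its Lgr5 stem cell marker sum was the lowest, 3368 CPM against 5225 and 4721 CPM in libraries 1 and 2. Among the Hopx-CreER libraries it also had the highest enterocyte sum, 4759 CPM, and the lowest tuft sum, 178 CPM. Goblet and enteroendocrine sums were instead highest in library 2. The Paneth sum was higher in library 1 than in library 2 (15720 and 14980 CPM), unlike the members' level. The part of these markers in the members' values was not tested. Without Hopx-CreER library 3 the members' median was 0.05, with 51 of 77 above 0, and the median of all genes was -0.02.

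**Figure D3:**
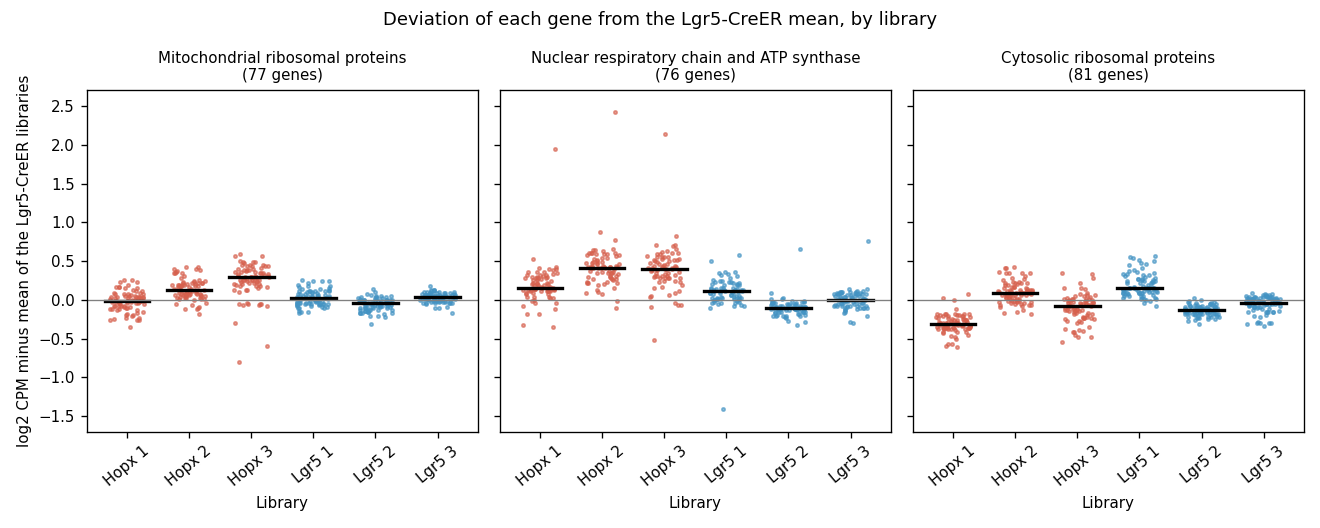
Log2 CPM of each gene minus its mean over the Lgr5-CreER libraries (y axis), per library (x axis), for the 77 members, 76 nuclear respiratory chain and ATP synthase genes and 81 cytosolic ribosomal protein genes, with bars for medians. The members' medians are -0.02, 0.13 and 0.29 in the Hopx-CreER libraries and -0.05 to 0.04 in the Lgr5-CreER libraries.

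Levels per length differed far more between members than between the sorted groups. On the scale of CPM per kilobase of the longest annotated transcript, the mean level over the 6 libraries ran from 9.16 for Mrpl1 to 248 for Mrpl28, a 27.1-fold range, with a median of 48.2. The order was close to the same in both groups (Spearman's rho 0.993 over 77 members, which share libraries and lengths). The highest levels per length were those of Mrpl28, Mrpl2 and Mrpl34, all large-subunit proteins with bacterial homologues. Mrpl28 was at 257 ± 35.4 CPM per kilobase in Hopx-CreER and at 240 ± 8.64 in Lgr5-CreER. Mrpl2, which lies by the peptidyl transferase centre, was at 174 ± 24.6 and 148 ± 8.50, and Mrpl34 at 171 ± 20.1 and 137 ± 10.2 (SD, n = 3 each). Within each group of 3, the levels of Mrpl2 and Mrpl34 did not differ from each other beyond their spread.

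The lowest levels per length were those of Mrpl1, Mrpl23 and Mrpl47. Mrpl1 was at 8.43 ± 2.50 CPM per kilobase in Hopx-CreER and at 9.90 ± 0.157 in Lgr5-CreER. Mrpl23, beside the exit of the peptide tunnel, was at 9.24 ± 1.01 and 9.71 ± 0.697, and Mrpl47 at 10.8 ± 1.62 and 10.1 ± 0.213 (SD, n = 3 each), so these neighbours overlapped in Hopx-CreER. The choice of transcript length moves this order. With the median length of the coding transcripts, levels ran from 9.50 to 334 CPM per kilobase. Mrpl42 then came first with Mrpl28 behind it, Mrpl2 and Mrpl34 moved to ranks 7 and 8, and Mrpl23 left the lowest 3. The rank correlation of both scales was 0.697 over the 77 members.

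Many members share their start region with a neighbour on the opposite strand. Starts were compared with those of coding genes on the opposite strand in the GRCm38 annotation (GENCODE M21). For 18 of 77 members (23.4%), such a start lay at most 1000 bases upstream of the member's own. The share was 10.6% among the 11493 coding genes tested. Pairs whose starts lie past each other, so that the genes overlap there, were not counted. Of the 16 partners that were tested, 2 were called higher in Hopx-CreER and 0 lower, a share close to the 12.8% of all genes called (9.45% higher). They are named because they are so few. Klc4, a kinesin light chain gene with a start 207 bases from that of Mrpl2, was at 214.8, 201.4 and 268.4 CPM against 125.0, 121.8 and 139.4 CPM. Its log2 fold change was 0.83 with an edgeR adjusted p of 0.00455, whereas Mrpl2 was at 155.8, 175.0 and 206.1 CPM against 159.1, 142.8 and 156.4 CPM, for 0.23 ± 0.13 (adjusted p 0.279). The Mrpl2 value kept its sign in 16 of 19 alternatives and reached -0.21. Apba3, 26 bases from Mrpl54, had 0.56 with an edgeR adjusted p of 0.0451, which ran from 0.0201 to 0.271 over 19 alternatives and passed in 5. Without any single library of either group, it did not pass (adjusted p 0.0545 to 0.182). Ncapd2, a condensin gene whose start lies 100 bases from that of Mrpl51, had -0.23 with an edgeR adjusted p of 0.296. Sars2, the mitochondrial seryl-tRNA synthetase gene 172 bases from Mrps12, had 0.26 with an edgeR adjusted p of 0.247.

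Exons shared with other genes touched a minority of the members. The library kits do not mark strand, so reads in an exon that overlaps another gene cannot be assigned by strand. Exons of 17 members overlapped another gene over more than 10% of their bases, most of all Mrps25, with 69.8% under antisense Nr2c2, and Mrps34, with 63.4% under antisense Mapk8ip3. For the other 60 members the median log2 fold change was 0.14, 0 were called in edgeR, and the interval lay within 1.5-fold for 51 and within 2-fold for 60. The 4 annotated pseudogenes of members reached at most 2.23 CPM in any library.

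Among the proteins that build or serve the mitochondrial ribosome, calls were also few. Of 5 ribosomal proteins under other names, 28 assembly and rRNA modification factors and 15 translation factors, 0 were called in edgeR in either direction, and DESeq2 and limma-voom called 0 too, with 1 assembly factor at an unadjusted p under 0.05, against 12.8% of all genes called and 27.3% at that unadjusted p. Offsets for GC content and length gave 2 assembly factors and 1 of the 5 ribosomal proteins called lower, against 9.5% of all genes. GC offsets alone gave 1 assembly factor called lower, both with and without Hopx-CreER library 3, against 8.34% and 9.27% of all genes. Their median log2 fold changes were 0.07, -0.00 and 0.05. Ptcd3, a small-subunit pentatricopeptide protein, had -0.48 with an edgeR adjusted p of 0.222, which was 0.0476 without Hopx-CreER library 1. Mpv17l2, an assembly factor, had 0.30 with an edgeR adjusted p of 0.178. Fastkd2, from the same list, had -0.36 with an edgeR adjusted p of 0.194. Mtif3, an initiation factor, had 0.34 with an edgeR adjusted p of 0.213, and Oxa1l, which inserts the new proteins into the inner membrane, had 0.21 with 0.348.

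Of 20 mitochondrial aminoacyl-tRNA synthetases, 1 was called lower in Hopx-CreER and 0 higher (5.0%, against 12.8% of all genes), with a median of -0.07. It was Vars2, at 90.2, 85.3 and 92.1 CPM against 126.0, 111.8 and 115.0 CPM, with a log2 fold change of -0.40 ± 0.11 and an edgeR adjusted p of 0.0416. Its groups did not overlap. The call was kept in 11 of 19 alternatives and without Hopx-CreER library 3, and was lost without any other single library (adjusted p 0.0967 to 0.145). Of 19 tested genes for mitochondrial transcription and DNA maintenance, 2 were called lower and 1 higher, with a median of -0.14. The share called, 15.8%, was close to the 12.8% of all genes. Pprc1, a coactivator related to PGC-1, was at 110.2, 106.9 and 106.7 CPM against 184.2, 165.5 and 169.5 CPM, for -0.68 ± 0.10 with an edgeR adjusted p of 0.00343, and was called in all 19 alternatives. Myc, which drives ribosome biogenesis, was at 210.0, 202.2 and 136.4 CPM against 289.0, 307.7 and 322.1 CPM, for -0.74 ± 0.16 with an edgeR adjusted p of 0.0167. The Myc call was kept in 16 of 19 alternatives, and its losses included those without Lgr5-CreER library 2 or 3 (edgeR adjusted p 0.0639 and 0.0683). Esrra, a nuclear receptor of mitochondrial genes named after its value was seen, was called higher (0.66, edgeR adjusted p 0.0247) and kept the call in 12 of 19, with adjusted p up to 0.109. The losses of the Esrra call included those without Hopx-CreER library 1 and without Lgr5-CreER library 2 or 3 (edgeR adjusted p 0.0506, 0.0987 and 0.109).

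The nuclear genes of the respiratory chain and ATP synthase were called more often than the members. Of 76, 17 were called higher in Hopx-CreER in edgeR and 0 lower, against 9.45% and 3.3% of all genes, the median log2 fold change was 0.32, and 74 lay above 0. This comprised 5 of 36 complex I genes, 1 of 4 complex II genes, 3 of 9 complex III genes, 3 of 11 complex IV genes and 5 of 16 ATP synthase genes. Uqcrfs1, the iron-sulfur protein of complex III, was at 666.3, 659.7 and 819.7 CPM against 449.4, 454.1 and 487.1 CPM, for 0.63 ± 0.12 (edgeR adjusted p 0.00886, called in 19 of 19 alternatives). Other calls held less often. Those of Cox5a, Ndufb10 and Sdhb held in 13, 12 and 12 of 19, and those of Cyc1 and Atp5o in 9 and 6. The count of 17 fell to 1 without Lgr5-CreER library 2, to 2 without library 3, to 4 without library 1, to 5 without Hopx-CreER library 2 and to 9 without library 3. Calls over all genes fell with the same libraries left out, to 4.72%, 5.68% and 5.87% higher without Lgr5-CreER library 2, 3 or 1 and to 7.1% without Hopx-CreER library 2, but were 9.89% without Hopx-CreER library 3. The count was 4 with GC offsets (8.39% of all genes) and 24 in DESeq2 (11.3%). Over the 19 alternatives the median log2 fold change of these genes ran from 0.06 to 0.42. It lay above that of all genes by 0.16 to 0.43. Their medians by library were 0.16, 0.42 and 0.40 in Hopx-CreER, so library 2 lay with library 3, unlike for the members. The difference between the lists was not tested.

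Cytosolic ribosomal protein genes lay mostly on the other side of 0. Of 81 tested, 0 were called in edgeR and 1 had an unadjusted p under 0.05, against 12.8% and 27.3% of all genes. The median log2 fold change was -0.10, and 6 lay above 0. Over the 19 alternatives this median ran from -0.41 to 0.007. By library, the medians were -0.31, 0.09 and -0.08 in Hopx-CreER and 0.15, -0.14 and -0.03 in Lgr5-CreER, so the groups overlapped. DESeq2 and limma-voom also called 0, against 16.9% and 12.4% of all genes. With offsets for GC content and length 27 were called lower, against 9.5% of all genes. Of the 13 proteins encoded by mitochondrial DNA, only 8 were in the table, and these had a median of -0.35, all below 0. None was called in edgeR, DESeq2 or limma-voom, and 0 had an unadjusted p under 0.05. The call of mt-Nd1, a complex I subunit at 201.1, 291.7 and 129.8 CPM against 254.0, 318.1 and 298.1 CPM, was gained in 2 of 19 alternatives, with offsets for GC content and length (edgeR adjusted p 0.0200) and without Hopx-CreER library 2 (0.0436), against 0.242 here. Their library medians of -0.54, 0.25 and -0.83 in Hopx-CreER spread on both sides of the Lgr5-CreER mean. The mitochondrial ribosomal RNAs mt-Rnr1 and mt-Rnr2 had -0.20 and -0.15, and neither was called.

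**Figure D4:**
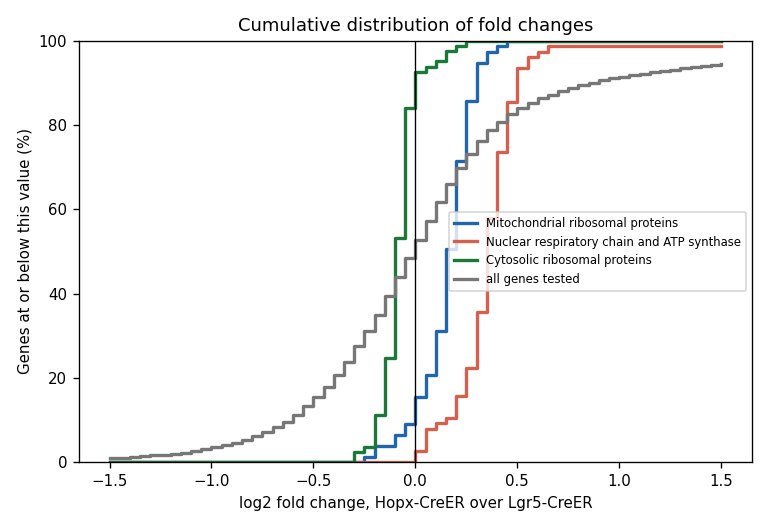
Cumulative share of genes (y axis, percent) at or below each log2 fold change (x axis, positive where Hopx-CreER is higher) for the members, the nuclear respiratory chain and ATP synthase genes, the cytosolic ribosomal protein genes and all genes tested. The medians are 0.14, 0.32, -0.10 and -0.03 in that order, and the members' curve is steeper than that of all genes.

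The members' median moved with corrections for base composition and length. Members had a median GC content of 49.7% and a median longest transcript of 1884 bases, against 50.0% and 3180 bases over all genes tested. Across all genes tested, log2 fold changes correlated with GC content (Spearman's rho 0.250) and with length (-0.305), and across the 77 members the values were 0.217 and -0.244. Without Hopx-CreER library 3 these were 0.0855 and -0.188 over all genes and 0.148 and -0.288 over the members. Genes share libraries, so these describe the libraries and carry no p. With offsets for GC content and length the members' median was -0.07 against -0.11 for all genes, so the sign of the members' median changed. The members' median lay above that of all genes by 0.18 here, by 0.04 with these offsets and by 0.07 without Hopx-CreER library 3.

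**Figure D5:**
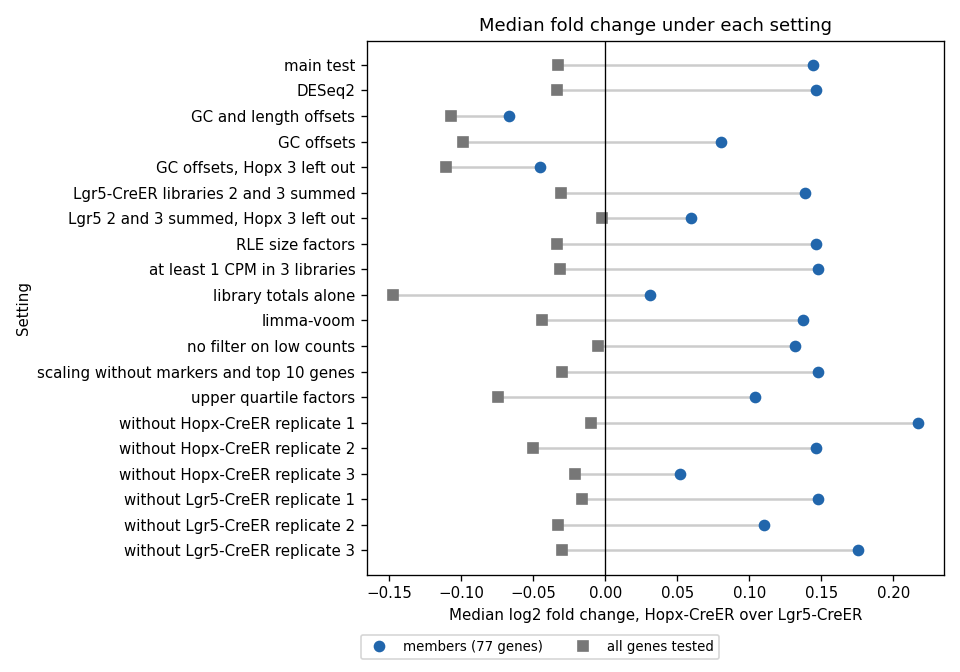
Median log2 fold change (x axis, positive where Hopx-CreER is higher) for the 77 members (circles) and for all genes tested (squares) under each setting (y axis). The members' median lies above that of all genes in every setting shown, by 0.04 to 0.23, and is below 0 in 2 settings with GC offsets.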

How the data were processed

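Raw gene counts per library were deposited by the authors as a table of 23565 mouse genes, 2443 of them at 0 in every library. The submitters' processing notes name kallisto, edgeR and GRCh38, a human build, whereas the gene identifiers are mouse. Per the labels' protocols, cDNA was made with SMART-Seq v4 and libraries with Nextera XT, neither of which marks strand. Column headers gave the group of each library but no replicate number, and 1 Hopx-CreER header carried a suffix that the labels do not explain. The libraries are from 3 mice per group, per the labels, although 2 Lgr5-CreER headers share a number. If those libraries came from 1 animal, the p-values are too small. With these 2 libraries summed, 6.14% of all genes were called in edgeR, against 12.8% before. The members' median log2 fold change was then 0.14, with 64 of 77 above 0.

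Symbols and coordinates came from GENCODE M21 (GRCm38), which matched 23479 identifiers and not 86. Counts were filtered with filterByExpr, scaled by TMM and tested with edgeR 4.0.16 (quasi-likelihood F-test, R 4.3.3) over 12439 genes, with Benjamini-Hochberg adjustment and a threshold of 0.05. The biological coefficient of variation was 22.5%. Standard errors are the log2 fold change over the square root of F, and 95% intervals use the t distribution of that fit. Per-library log2 values used CPM plus 0.5. GC content was taken over the longest annotated transcript of each gene. DESeq2 1.42.0 and limma 3.58.1 (voom) were alternatives, beside other scalings, filters, GC and length offsets (splines with 5 degrees of freedom), summed Lgr5-CreER libraries 2 and 3, and each library left out. The code was tested on simulated data. The genes named were the 3 with the smallest p in each direction, the 3 highest and 3 lowest levels per length and the 2 largest changes. The 2 smallest p of each other list were also set to be named, but not all of these genes are printed. Others were named for their role or after their values were seen. The members and lists were chosen with earlier results of these data known.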

Additional observations from a re-analysis of the deposited data

How the results depend on the processing

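The members' count of 0 calls in edgeR became 2 higher in DESeq2, 1 higher with at least 1 CPM in 3 libraries, 1 higher with scaling that left out cell type markers and the 10 most abundant genes, and 0 to 2 with 1 library left out. The 2 calls without Hopx-CreER library 1 were Mrpl51 and Mrpl55 (edgeR adjusted p 0.0472 and 0.0495). Offsets for GC content and length gave 4 calls lower in Hopx-CreER, Mrpl28 (-0.33, against 0.10 before), Mrps18a (-0.35), Mrpl50 (-0.34) and Mrpl14 (-0.40), against 9.5% of all genes called lower. The members' median log2 fold change of 0.14 was -0.067 with offsets for GC content and length, 0.08 with GC offsets, -0.045 with GC offsets and without Hopx-CreER library 3 (chosen after seeing the data), 0.031 with library totals alone and 0.05 to 0.22 with 1 library left out. The cause of these shifts was not tested. The 95% interval stayed within 2-fold for 73 to 77 members and within 1.5-fold for 41 to 77 over the edgeR settings. No paired analysis was possible because the columns carry no replicate numbers. With 3 libraries per group, the standard errors, 0.13 at the median, limit what can be seen to changes well above those of most members.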
